A study of Mus musculus with 6 samples.

Results

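The genes described here are targets of the tumour suppressor p53, measured in the ventricles of mouse embryos that lack skNAC, the long muscle-specific product of the Naca gene. They were chosen by name: 10 genes were listed (Cdkn1a, Mdm2, Ccng1, Trp53inp1, Bax, Bbc3, Perp, Phlda3, Zmat3 and Plk2), and every probe set that the platform annotation assigns to 1 of these symbols alone was taken. This gave 16 of the 45101 probe sets of the array, for 9 of the 10 genes; Bax was not analysed here. All 9 genes were matched to the mouse RefSeq gene table by their Entrez identifiers. The arrays were of the Affymetrix mouse 430 2.0 design, which has 1 colour and reads a gene through 1 or more sets of short probes.

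Both groups were embryos of the 129SvEv strain at stage E11.5, and RNA came from the ventricle. The knockout group carried a targeted deletion of skNAC, which the labels link to heart defects and to death by E12.5, and the wild-type group came from littermates without it. Each genotype had 3 arrays, which keep their title numbers here: 1, 26 and 66 are knockout and 13, 23 and 57 wild-type. The labels do not say whether an array held 1 heart or several, or which embryos shared a litter, so p-values measure only the spread between these samples.

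p53 is a transcription factor that is held at a low level in most unstressed cells and accumulates after DNA damage and other stresses. Its targets stop the cell cycle, start apoptosis through the mitochondrial BCL-2 family, repair DNA, or feed back on p53 itself. Mdm2 is both a target and the ubiquitin ligase that marks p53 for destruction, which closes the loop. Several of these genes also have other regulators, so their transcripts are no direct measure of p53 activity, and p53 protein and binding were not measured.

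Promoter sequence from RefSeq is shown for the genes whose start regions hold the letters that p53 recognises. The windows ran from 250 bases before to 50 bases after a transcript start, on build GRCm38.p6, and 6 of the 9 genes had at least 1 of them (9 windows in all): Cdkn1a, Mdm2, Ccng1, Bbc3, Phlda3 and Plk2. They were searched on both strands for exact matches to the p53 half-site, a consensus of 10 letters that reads the same on either strand. It was found in 3 of the 9 windows, 1 each of Cdkn1a, Mdm2 and Ccng1, against 8.36% of 32851 windows of the same length over all genes. The Cdkn1a window held 2 half-sites with a gap of 12 bases, and 0.0731% of all windows held such a pair at a gap of up to 13 bases. The stretches below are 60 bases each, written 5′ to 3′ on the strand of the gene, with the half-sites in capitals. They lie at chr17:29090892-29090951 on the + strand (Cdkn1a), chr10:117710910-117710969 on the - strand (Mdm2) and chr11:40755437-40755496 on the - strand (Ccng1).
Cdkn1a: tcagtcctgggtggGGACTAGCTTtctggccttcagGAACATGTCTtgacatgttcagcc
Mdm2: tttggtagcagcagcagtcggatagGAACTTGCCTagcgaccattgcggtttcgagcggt
Ccng1: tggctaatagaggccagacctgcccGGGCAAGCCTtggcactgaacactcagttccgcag
In Cdkn1a the half-sites begin 73 and 51 bases before the start of the upstream of its 2 annotated transcript starts, which lies 2790 bases from the other. Directly after the second of them stand the 10 letters tgacatgttc, which differ from the consensus only in the first letter. The search allowed no mismatch, so they were not counted as a half-site, and the pair counted here need not be the one that p53 uses. In Mdm2 the half-site begins 186 bases before the start, and in Ccng1 185 bases before it. A match of letters is a description and does not show that p53 binds there in this tissue.

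The values are MAS5 signals on a linear scale, which the authors scaled so that every array has the same trimmed mean (250). Array medians lay between 92.0 and 114, and precision is limited by how few arrays there are. Knockout 66 stood apart from the rest: it scored 55.9 on a first principal component with 38.7% of the variance, where the other 5 arrays scored between -24.7 and 4.79. Markers of cardiomyocytes were bright on every array (10 of 10 kept by the filter). All 5 liver markers with a probe set were below it, although their small summed signal ran from 251 to 406 on knockout arrays, above the 172 to 245 of wild-type arrays. The brighter of 2 Naca probe sets read 8595 to 9047 in knockout and 8286 to 8566 in wild-type, and no source used here says whether it reads the deleted part, so it does not check the genotypes.

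No p53 target gene passed the test between genotypes. Log2 differences below are knockout minus wild-type ± SE on log2(signal + 16), from limma over the 22518 probe sets whose mean log2 signal lay above the median of the array, a signal of 95.2. That filter kept 13 of the 16 probe sets, at least 1 for each of the 9 genes. In limma with Benjamini-Hochberg adjustment over all kept probe sets, 0 of the 13 were below an adjusted p of 0.05, against a background of 0% of all kept probe sets. Their adjusted p-values ran from 0.975 to 0.998. At an unadjusted p under 0.05 there was 1 of 13, Perp, where 4.81% of all kept probe sets passed. All 13 of the 95% intervals of the difference lay within 1 log2 unit of 0 in either direction, and 6 of them within 0.5.

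**Figure D1:**
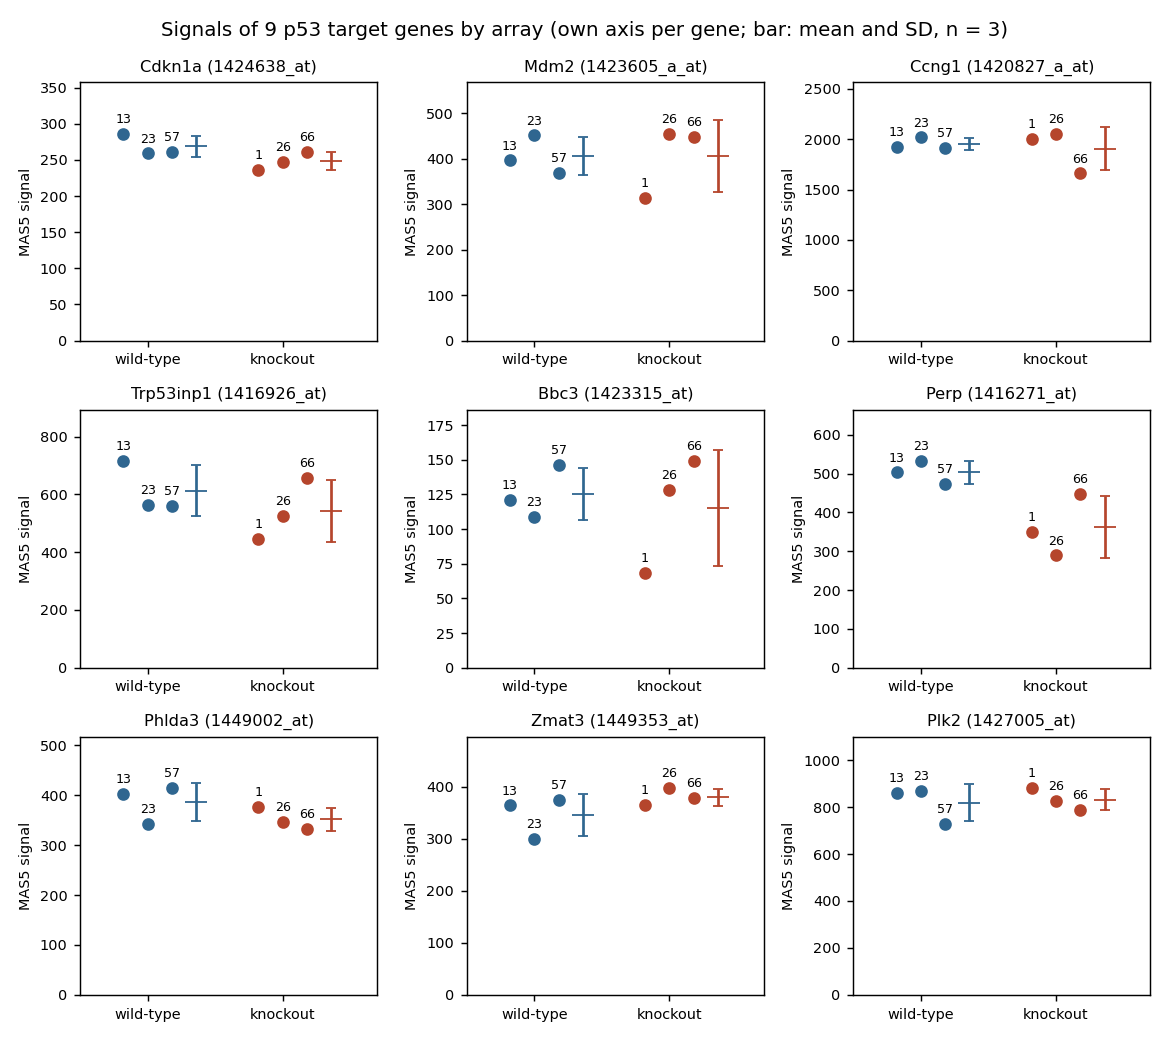
Each panel plots the MAS5 signal (vertical axis, from 0, scaled to its own gene) of the brightest kept probe set of a p53 target gene on 3 wild-type arrays (blue) and 3 knockout arrays (red), with array numbers beside the points and bars for the mean and SD (n = 3). The genotypes overlap in every panel except that of Perp, where knockout reads 289 to 447 and wild-type 474 to 532.

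The genes that stop the cell cycle or feed back on p53 come first. Cdkn1a encodes p21, an inhibitor of cyclin-dependent kinases and the best known p53 target in cell cycle arrest. Its kept probe set (1424638_at) read 236, 247 and 261 on knockout arrays 1, 26 and 66 and 286, 259 and 261 on wild-type arrays 13, 23 and 57. Knockout 1 and 26 lay below every wild-type array, and knockout 66 lay among them. This gave a log2 difference of -0.11 ± 0.16 (95% interval -0.47 to 0.25), so an increase of this signal beyond 0.25 lay outside the interval. The second Cdkn1a probe set (1421679_a_at) was below the filter, with signals of 4.0 to 22.7 in knockout and 6.0 to 32.1 in wild-type.

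Mdm2 showed the same mean in both genotypes on its brightest probe set (1423605_a_at). It read 314, 454 and 447 on knockout arrays 1, 26 and 66 and 396, 451 and 368 on wild-type arrays 13, 23 and 57, with means of 405 ± 79.2 and 405 ± 42.3 (SD, n = 3). The knockout arrays took the lowest and the highest place, for a log2 difference of -0.013 ± 0.18 (95% interval -0.41 to 0.38). Without knockout 1 it became 0.15. The second kept probe set (1427718_a_at) read 163, 225 and 189 on knockout arrays 1, 26 and 66 and 152, 180 and 176 on wild-type arrays 13, 23 and 57, a difference of 0.16 ± 0.21, so the 2 probe sets stood on opposite sides of 0 without either passing the test. The remaining probe set (1457929_at) was below the filter, at 14.9 to 93.0 over the 6 arrays.

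Ccng1 encodes cyclin G1, a p53 target that takes part in the Mdm2 feedback loop. Its brightest probe set (1420827_a_at) read 1999, 2052 and 1660 on knockout arrays 1, 26 and 66 and 1923, 2018 and 1917 on wild-type arrays 13, 23 and 57. Knockout 66 was the lowest, and the other 5 arrays lay close together. The difference was -0.042 ± 0.11 with all arrays and 0.052 without knockout 66. The other 2 probe sets, 1450016_at and 1450017_at, gave -0.22 ± 0.17 and -0.24 ± 0.18, and their genotypes overlapped as well. On the second of these, wild-type 13 was the highest array, at 616, and knockout 66 the lowest, at 367. All 3 probe sets of Ccng1 were thus below 0, and each interval crossed 0.

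Plk2 encodes a polo-like kinase of centriole duplication and stress responses, and its probe sets did not agree on the arrays. The brighter one (1427005_at) read 880, 827 and 789 on knockout arrays 1, 26 and 66 and 860, 868 and 728 on wild-type arrays 13, 23 and 57, a difference of 0.025 ± 0.13. The other (1443780_at) read 234, 350 and 631 on knockout arrays 1, 26 and 66 and 419, 398 and 454 on wild-type arrays 13, 23 and 57. Its knockout arrays took the 2 lowest places and the highest, with an SD of 204 in knockout and 28.4 in wild-type. The difference was -0.17 ± 0.28, and it was -0.54 without knockout 66 (unadjusted p = 0.0141, adjusted p = 0.580 in limma) and 0.15 without knockout 1.

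The genes linked to cell death follow. Bbc3 encodes Puma, a BH3-only protein that sets off the mitochondrial pathway of apoptosis. Its 1 probe set (1423315_at) was near the filter and read 68.3, 128 and 149 on knockout arrays 1, 26 and 66 and 121, 109 and 146 on wild-type arrays 13, 23 and 57. Knockout 1 stood lowest and knockout 66 highest, with the wild-type arrays between them. The log2 difference was -0.16 ± 0.30, and its interval from -0.82 to 0.51 was the widest of the 13. Without knockout 1 the difference was 0.13, so its sign rests on that array.

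Trp53inp1 encodes a p53-induced nuclear protein that promotes cell death and autophagy. Its kept probe set (1416926_at) read 445, 525 and 658 on knockout arrays 1, 26 and 66 and 715, 564 and 559 on wild-type arrays 13, 23 and 57. Knockout 1 and 26 lay below every wild-type array, and knockout 66 lay between wild-type 23 and wild-type 13. The difference was -0.18 ± 0.17, or -0.05 without knockout 1, -0.066 without wild-type 13 and -0.32 without knockout 66. The second probe set (1416927_at) fell just short of the filter, at a mean of 93.1 over 6 arrays, and its genotypes overlapped (73.3 to 100 in knockout, 68.4 to 139 in wild-type).

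Perp stood lowest of the 9 genes in the knockout. It encodes a tetraspan membrane protein that was found as a p53 target in apoptosis and is also a part of epithelial desmosomes. Its 1 probe set (1416271_at) read 349, 289 and 447 on knockout arrays 1, 26 and 66 and 503, 532 and 474 on wild-type arrays 13, 23 and 57. Every knockout array read lower than every wild-type array, which holds for 5.55% of all kept probe sets in this direction, and for 1 of the 13 here. The means were 362 ± 79.7 and 503 ± 29.2 (SD, n = 3), for a log2 difference of -0.48 ± 0.17 (95% interval -0.86 to -0.095). In limma the unadjusted p was 0.0191 and the adjusted p 0.975, so Perp is not called. Knockout 66, the array that stands apart, was the one nearest to wild-type, and without it the difference was -0.64 (adjusted p = 0.443). Without knockout 26 it was -0.34 (unadjusted p = 0.0894).

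Other signals also separated the genotypes along with Perp, though the marker sums given first did so by a narrow margin. The summed signal of 8 markers of cushion and mesenchyme cells (all 8 kept) was 3810, 3502 and 4884 on knockout arrays 1, 26 and 66 and 4896 to 5332 in wild-type. Among the knockout arrays, knockout 66 was highest for Postn (1551, against 753 and 705 on knockout 1 and 26), Pdgfra (1497, against 886 and 830) and Prrx1 (368, against 179 and 267). Snai2, Pdgfrb, Twist1 and Sox9 were lower on knockout 66 than on the other knockout arrays. Col1a1 lay between them there, at 523 against 616 and 490. Between genotypes the list was mixed, with 6 of 8 log2 differences below 0 and a median of -0.36 in limma without the filter. Snai2 (-0.76), Col1a1 (-0.51) and Pdgfrb (-0.47) did not overlap. Postn (-0.68) and Twist1 (-0.25) did, as did Prrx1 (-0.022), Sox9 (0.0033) and Pdgfra (0.14). Col1a1 had the smallest unadjusted p of the 8 in that fit (0.00222, adjusted p = 0.873). The summed signal of 9 markers of foregut and surface epithelium (6 kept) was 3586 to 3782 in knockout and 3786 to 3969 in wild-type. Most of that sum came from Dsg2, a desmosomal cadherin that heart muscle also makes. It read 2413 to 2706 in knockout and 2612 to 2973 in wild-type. Only 4 of the 9 markers were below 0. The median log2 difference of the 9 was 0.10, on the other side of 0 from the lower knockout sum. No marker of either list was at 0 on any array, which does not show that each was detected, since Foxa2 read only 10.1 on knockout 1. Sums of cardiomyocyte, erythroid, endothelial, epicardial, macrophage and platelet markers overlapped between genotypes, but some single markers of these lists did not. Those of smallest unadjusted p were Krt8, from the epicardial list, and Ppbp, from the platelet list. Krt8 read 1056 to 1621 in knockout and 603 to 787 in wild-type, and Ppbp 416 to 499 and 640 to 725. Neither passed the adjustment (adjusted p = 0.873 for each in limma without the filter). Their lists did not follow them as a whole. The epicardial median log2 difference was 0.053, with 4 of 9 below 0, beside 0.80 for Krt8. The platelet median was -0.038, with 4 of 5 below 0, beside -0.56 for Ppbp. Over all genes tested, the genotypes did not overlap in 5.45% with knockout lower and in 5.40% with knockout higher. The 3′ to 5′ signal ratio, a measure of RNA and labelling quality, was 2.49 to 2.57 for actin in knockout and 2.05 to 2.24 in wild-type, and 1.28 to 1.45 against 1.12 to 1.20 for Gapdh. The part of these in the Perp difference was not tested, and in bulk tissue fewer cells of a type and less RNA per cell cannot be told apart.

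The last pair of members act on survival signalling and RNA. Phlda3, a pleckstrin homology domain protein that restrains the kinase Akt, read 377, 347 and 332 on knockout arrays 1, 26 and 66 and 403, 342 and 414 on wild-type arrays 13, 23 and 57. Wild-type 23 lay among the knockout arrays, and the difference was -0.13 ± 0.15. Zmat3, a zinc finger protein that binds RNA, read 365, 397 and 378 on knockout arrays 1, 26 and 66 and 364, 300 and 374 on wild-type arrays 13, 23 and 57. Here the knockout arrays lay above wild-type 13 and 23, with knockout 1 below wild-type 57, and the difference of 0.13 ± 0.16 was the highest among the 9 brightest probe sets.

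**Figure D2:**
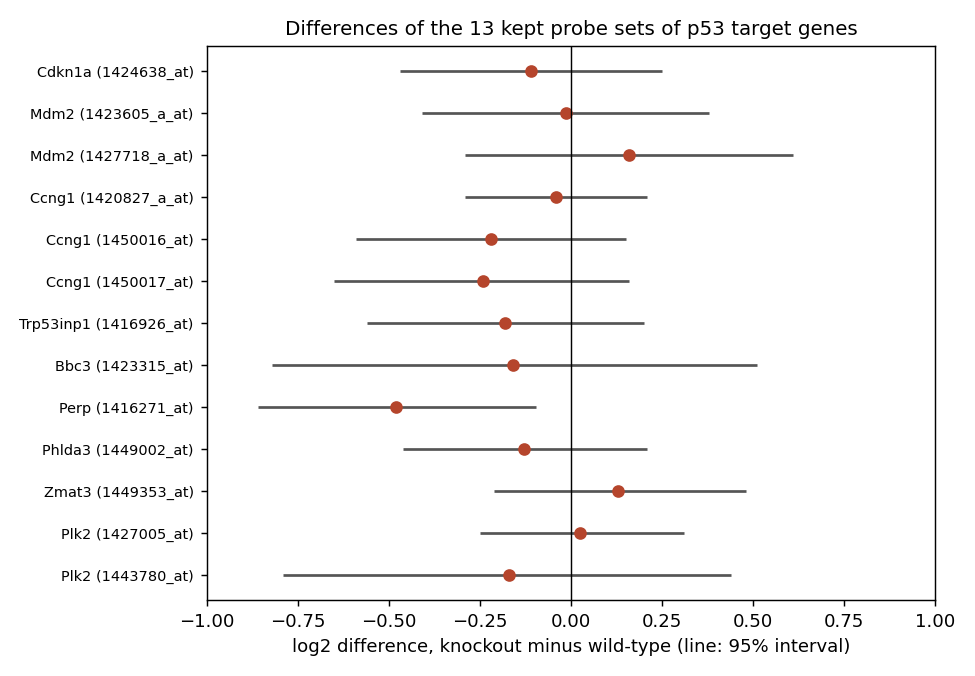
The plot shows the log2 difference, knockout minus wild-type, of the 13 kept probe sets (points) with 95% intervals from limma (lines). The interval of Perp, from -0.86 to -0.095, is the one that does not cross 0.

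With 1 value per gene, its brightest kept probe set, 7 of the 9 genes were below 0 and 2 above, with a median of -0.11. Over all 11661 genes tested, 49.6% were below 0 and the median was 0.0023. The range among members, from -0.48 (Perp) to 0.13 (Zmat3), compares with the 5th and 95th percentiles of all genes at -0.39 and 0.34, so Perp alone lay outside that band. Of the 13 probe sets, 10 were below 0 and 3 above. The median of the 9 genes was -0.05 without knockout 1, -0.063 without wild-type 13 and -0.051 with array quality weights. It was -0.091 without knockout 66.

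The members differed in which arrays were high or low. Knockout 1 was the lowest of the 6 arrays for 4 of the 9 genes, Cdkn1a, Mdm2, Trp53inp1 and Bbc3, and its median deviation from the gene means was -0.12. Knockout 26 was the highest array for 3 genes, Mdm2, Ccng1 and Zmat3, and the lowest for Perp. Knockout 66 had a median deviation of 0.06, close to the 0.062 of wild-type 13, and was lowest for Ccng1 and Phlda3. Median deviations of wild-type 23 and 57 were 0.0037 and 0.016. Among kept probe sets, those of Cdkn1a, Mdm2, Trp53inp1, Bbc3, Perp and Zmat3 and the dimmer of Plk2 read lower on knockout 1 than on knockout 66. Those of Ccng1 and Phlda3 and the brighter of Plk2 read higher on knockout 1 than on knockout 66. Spread among the knockout arrays was widest in Bbc3, from -0.66 in knockout 1 to 0.31 in knockout 66, and in the dimmer Plk2 probe set. The latter ran from -0.73 to 0.65 on the same 2 arrays.

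**Figure D3:**
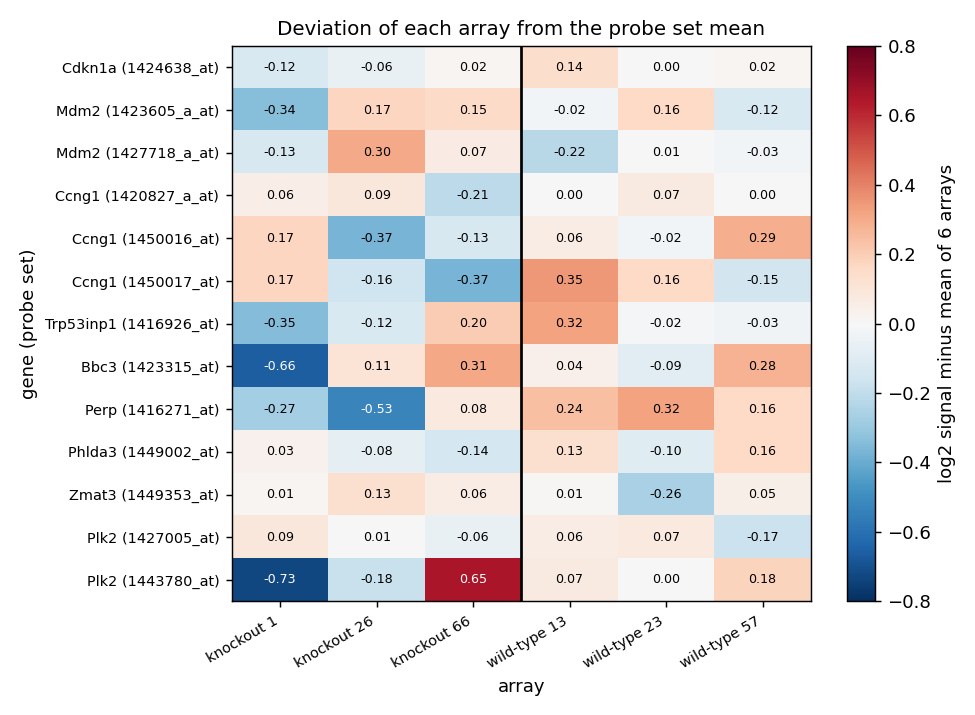
The grid shows, for each kept probe set (rows) and array (columns, knockout left of the line), the log2 signal minus the mean of the 6 arrays, in blue below and red above 0. Knockout 1 is low for Bbc3 (-0.66) and for the Plk2 probe set 1443780_at (-0.73), and no column is of 1 colour throughout.

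Because single arrays carried much of the spread, each was left out in turn. The signs of 8 of the 13 probe sets held in every alternative run, among them those of Cdkn1a, Perp, Trp53inp1, Phlda3 and Zmat3. Perp lay between -0.64 and -0.34 with 1 array left out, and Cdkn1a between -0.14 and -0.063. With knockout 1 left out, 8 probe sets were below 0 and 5 above. No member passed the adjusted threshold in any of these fits, and the lowest adjusted p was the 0.443 of Perp without knockout 66. Array quality weights gave Perp an adjusted p of 0.137.

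**Figure D4:**
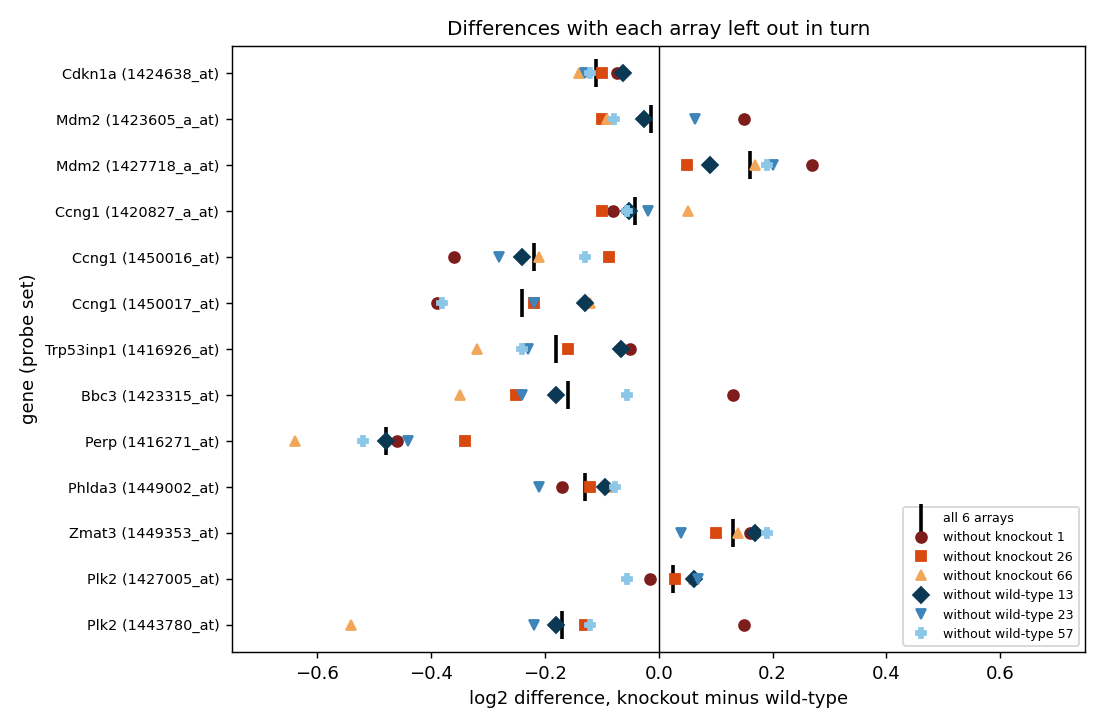
Each row plots the log2 difference, knockout minus wild-type (horizontal axis), of 1 kept probe set with all 6 arrays (black bar) and with each array left out (symbols). Bbc3 moves from -0.16 to 0.13 without knockout 1, while Perp stays between -0.64 and -0.34.

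The 3 genes whose signals followed those of Cdkn1a most closely were Ciao1, Synpo2l and Grn. Their root mean square differences from Cdkn1a, over 6 arrays after centring on the log2 scale, were 0.0285, 0.0286 and 0.0302, among 11624 genes compared. The SD of Cdkn1a itself over the arrays was 0.0870. Ciao1 read 460, 486 and 527 on knockout arrays 1, 26 and 66 and 550, 521 and 500 on wild-type arrays 13, 23 and 57. Knockout 1 was lowest and wild-type 13 highest, as in Cdkn1a. The 3 genes were picked for this likeness, so the shared order follows from the choice and is no separate result.

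The regulators of p53 gave no call. Of 15 listed genes, 11 had a kept probe set, with 6 below and 5 above 0 and a median of -0.0028, and 0 passed at an adjusted p of 0.05 or an unadjusted p of 0.05 in limma. Over all genes 0% passed the adjusted and 4.69% the unadjusted threshold, so a count of 0 among 11 is near the background. Of the others, Trp53 was not analysed here, and Trp63, Trp73 and Cdkn2a lay below the filter. Mdm4, the partner of Mdm2 that masks the activation domain of p53, read 249, 309 and 233 on knockout arrays 1, 26 and 66 and 214, 217 and 270 on wild-type arrays 13, 23 and 57 (0.16 ± 0.19). Usp7, a deubiquitinase of Mdm2 and p53, gave 0.14 ± 0.13 on the brightest of 5 kept probe sets, and 1 of the other 4 was below 0, at -0.077. Sirt1, a deacetylase of p53, read 464, 386 and 211 on knockout arrays 1, 26 and 66 and 358 to 439 in wild-type, so its -0.24 ± 0.25 follows knockout 66. Ppm1d, the phosphatase Wip1 that ends the p53 response, gave 0.17 ± 0.22, and -0.74 ± 0.41 on its second kept probe set, which read 189, 177 and 46.2 on knockout arrays 1, 26 and 66 and 208, 162 and 268 on wild-type arrays 13, 23 and 57. There knockout 1 and 26 lay among the wild-type arrays and knockout 66 alone below them.

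A further 24 p53 targets were listed, and 16 had a kept probe set. Of these, 11 were below 0 and 5 above, with a median of -0.078, and 0 passed at an adjusted or an unadjusted p of 0.05 in limma, again beside 4.69% of all genes at the unadjusted one. With 1 array left out, the median was -0.0084 for knockout 26, -0.016 for wild-type 13, -0.035 for wild-type 23 and -0.048 for wild-type 57. It was -0.11 for knockout 66 and -0.14 for knockout 1. Ddit4, an inhibitor of mTOR signalling that also responds to hypoxia, was the 1 gene whose genotypes did not overlap, as is the case for 5.45% of all genes in this direction. It read 456, 433 and 453 on knockout arrays 1, 26 and 66 and 516, 481 and 496 on wild-type arrays 13, 23 and 57, a difference of -0.15 ± 0.13. Eda2r, a member of the TNF receptor family, read 77.9, 135 and 177 on knockout arrays 1, 26 and 66. It read 91.9, 71.0 and 77.8 on wild-type arrays 13, 23 and 57, so the 0.55 ± 0.32 rests on knockout 26 and 66. Knockout 1 and every wild-type array lay below the filter signal of 95.2, so this gene was kept only through knockout 26 and 66. Pidd1, a death domain protein, gave -0.46 ± 0.32 from signals near the filter (52.7 to 116 in knockout, 92.9 to 136 in wild-type). Its knockout mean of 82.5 lay below the filter signal and its wild-type mean of 116 above it, so Pidd1 was kept through its wild-type signals. Pltp, a phospholipid transfer protein, gave -0.21 ± 0.17.

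Several well known targets did not pass the filter, which uses the mean of log2 signals. Gadd45a, Fas, Tnfrsf10b, Pmaip1, Ddb2, Plk3 and Ercc5 had all their probe sets below it. The 3 described here were chosen after their values were seen. Pmaip1, which encodes the BH3-only protein Noxa, read 10.1, 4.20 and 4.0 on knockout arrays 1, 26 and 66 and 29.1, 4.20 and 4.90 on wild-type arrays 13, 23 and 57. Gadd45a, a stress sensor of DNA damage, read 45.2 to 74.3 in knockout and 33.6 to 55.7 in wild-type. Ddb2, a damage recognition factor of nucleotide excision repair, read 133, 29.7 and 55.4 on knockout arrays 1, 26 and 66 and 118, 117 and 193 on wild-type arrays 13, 23 and 57. Knockout 1 lay among the wild-type arrays and knockout 26 and 66 below them, and limma without the filter gave a log2 difference of -0.98 ± 0.45 (unadjusted p = 0.0545, adjusted p = 0.966).

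The machinery of apoptosis downstream of p53 gave no call either. Of 37 listed genes of the BCL-2 family, the caspases and their activators and inhibitors, 29 had a kept probe set, with 12 below and 17 above 0 and a median of 0.033. Leaving out wild-type 57 turned that median to -0.037, and for knockout 26, knockout 66, wild-type 13 and knockout 1 in turn it was 0.058, 0.07, 0.078 and 0.009. Array quality weights gave 0.0073. In limma, 0 of the 29 passed the adjustment and 1 had an unadjusted p under 0.05, a count near the 4.69% of all genes. This was Bnip3, a mitochondrial BH3-like protein of mitophagy that is also induced by hypoxia. It read 3442, 3593 and 3663 on knockout arrays 1, 26 and 66 and 2912, 2922 and 2793 on wild-type arrays 13, 23 and 57, so that every knockout array lay above every wild-type array. The difference was 0.31 ± 0.091, with an adjusted p of 0.975 in limma. The genotypes also did not overlap in Bcl2l2, a survival member of the BCL-2 family named here after its values were seen. It read 411, 435 and 403 on knockout arrays 1, 26 and 66 and 380, 358 and 388 on wild-type arrays 13, 23 and 57, and gave 0.14 ± 0.14. These 2 of 29 compare with 5.40% of all genes in this direction.

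The remaining named genes of that list were an adaptor, an effector and a flavoprotein. Fadd, the adaptor of death receptors, read 304, 274 and 371 on knockout arrays 1, 26 and 66 and 257 to 278 in wild-type (0.24 ± 0.17), and knockout 26 lay among the wild-type arrays. Bok, a pore-forming relative of Bax, read 414 to 459 in knockout and 429 to 560 in wild-type (-0.18 ± 0.15). Aifm1, a mitochondrial flavoprotein released in cell death, gave -0.15 ± 0.13.

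**Figure D5:**
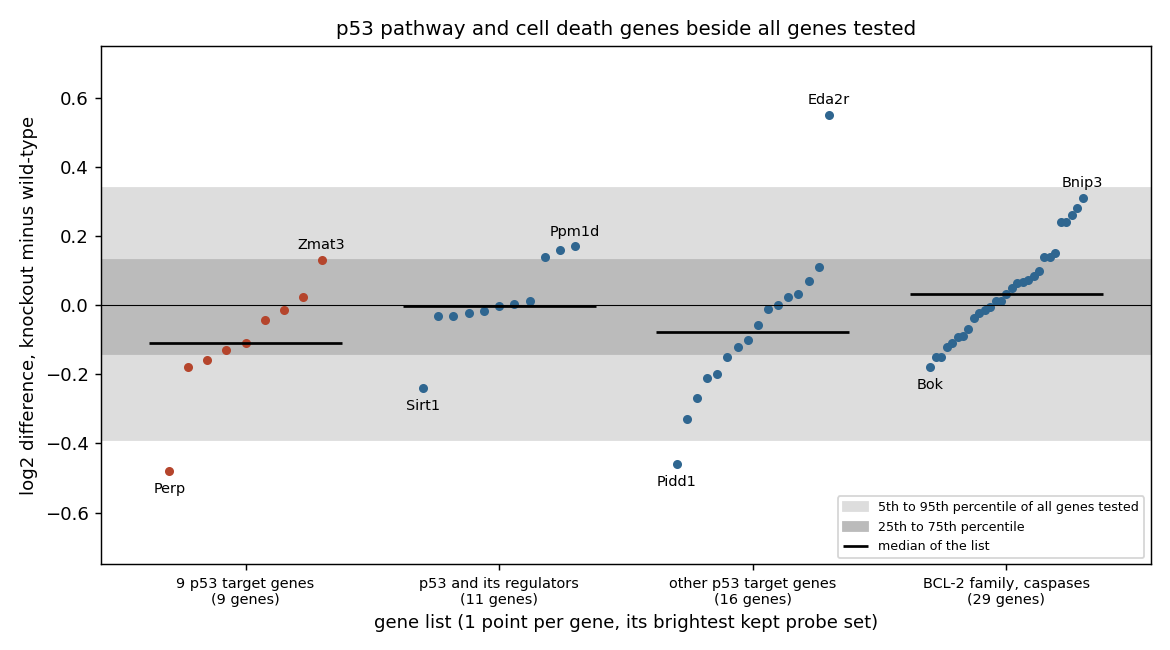
The plot shows log2 differences, knockout minus wild-type (vertical axis), with 1 point per gene for the 9 p53 targets and for 3 wider lists; black lines are medians and grey bands the 25th to 75th and 5th to 95th percentiles of all genes tested. The 4 medians lie between -0.11 and 0.033, and Perp (-0.48), Pidd1 (-0.46) and Eda2r (0.55) lie outside the wider band. Eda2r passed the filter only through its signals on knockout 26 and 66, and Pidd1 through its wild-type signals.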

How the data were processed

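Expression was measured in 6 ventricle samples, 3 per genotype. The deposited intensity values are probe set signals computed by the authors; the submitters' processing notes name GCOS and MAS5, and no version or setting is given in the sources used here. Since each array was scaled to a common mean, a signal is relative to its own array and cannot show a change in total RNA per cell.

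Signals were transformed as log2(intensity + 16), 64 control probe sets were removed, and probe sets with a mean log2 value above the median were kept. They were fitted with lmFit and eBayes with a trend in limma 3.58.1 under R 4.3.3. The tests were two-sided and unpaired, with Benjamini-Hochberg adjustment over 22518 probe sets. The script was run on simulated data with larger shifts than any member showed, so that run does not bear on differences of the size seen here. For 1 value per gene, the kept probe set with the highest mean log2 signal was used. Fold changes on this scale understate those of dim genes. Of the probe sets, 34945 had 1 symbol, 932 several and 9160 none.

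The members and gene lists were chosen with earlier results of these data known. By rule the text names all members, the 4 genes of smallest p per wider list, and the 3 genes nearest to Cdkn1a by root mean square difference, among those whose SD over the arrays was not less than that of Cdkn1a divided by 2; Bcl2l2, Pmaip1, Gadd45a and Ddb2 were added after their values were seen. Alternatives were the pseudocount, filter, normalization, eBayes settings, array weights, probe set choice and each array left out. Figures were drawn with Matplotlib 3.10.9.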

Additional observations from a re-analysis of the deposited data

How the results depend on the processing

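No member probe set passed an adjusted p of 0.05 under any alternative, which were pseudocounts of 1 and 64, no filter, a filter at the 70th percentile, 2 normalizations (quantile and median centring), 2 eBayes settings (no trend, robust), array quality weights, and each array left out. Of 193 member values under these alternatives, 183 kept their sign and 10 turned, the cause of which was not tested. Mdm2 (1423605_a_at) was 0.017 after quantile normalization, 0.029 with array quality weights, 0.15 without knockout 1 and 0.064 without wild-type 23, within -0.10 to 0.15 over arrays left out. Ccng1 (1420827_a_at) was 0.025 with array quality weights and 0.052 without knockout 66 (-0.10 to 0.052). Plk2 was -0.015 without knockout 1 and -0.056 without wild-type 57 on 1427005_at (-0.056 to 0.069), and 0.15 without knockout 1 on 1443780_at (-0.54 to 0.15). Bbc3 was 0.13 without knockout 1 (-0.35 to 0.13). Over all probe sets, 6 were called with array quality weights and 0 to 2 with an array left out, 2 of them without knockout 1. The median of the other p53 targets was -0.012 with the filter at the 70th percentile, where fewer genes are tested, -0.12 with array quality weights, and -0.14 to -0.0084 with an array left out. That of the BCL-2 family and caspase list was -0.037 to 0.078 with an array left out. No paired analysis was possible because the genotypes share no replicate number. The number of arrays limits the precision of each difference: the median SE was 0.17 over the 13 member probe sets and 0.21 over all.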
